A study of Mus musculus with 3 samples.

Results

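The genes of the proteasome were analysed in the BM transcriptome of LECT2-treated mice. Members were all gene symbols that begin with Psma to Psmg and a number, without the 3 immunoproteasome genes Psmb8, Psmb9 and Psmb10. This symbol rule gave 46 of 17250 gene names. Of these, 45 encode parts of the proteasome or its helpers, and 1, Psmc3ip, carries the name of a proteasome gene but encodes a protein of meiotic recombination and is given separately. The 45 genes fell by role into 7 alpha ring and 7 beta ring subunits of the 20S core, 6 ATPase and 11 non-ATPase subunits of the 19S cap, 5 activators or inhibitors, 4 core chaperones, 3 cap chaperones and 2 tissue-restricted core subunits.

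Bone marrow cells were flushed from femur, tibia, pelvis and humerus of C57BL/6 mice aged 6 to 8 weeks (males, per the methods). LECT2 (leukocyte cell-derived chemotaxin 2, a secreted protein) was made in CHO cells and given subcutaneously at 300 μg per kg daily for 3 or 5 days, whereas no injection is listed for the 0-day library. There was 1 RNA-sequencing library per time point, and the number of mice behind each library was not given in the sources used here. Hence no difference between time points had a replicate check and none was tested.

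The proteasome degrades proteins that carry ubiquitin chains. Its core is a barrel of stacked rings, in which the beta subunits Psmb5, Psmb6 and Psmb7 cut the chain and the alpha rings gate the entry, and its cap recognizes ubiquitin, removes it, and unfolds and feeds the substrate with a ring of ATPases. Every nucleated cell uses it, and blood cells can exchange the 3 catalytic subunits for those of the immunoproteasome. When proteasome activity is short, the factor Nfe2l1 is known to raise the transcription of the subunit genes together, through an antioxidant response element.

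The depth was close between the libraries, with 15523952, 15146983 and 15514673 reads counted on genes at 0, 3 and 5 days. On a transcript of 1 kilobase, 1 read was worth 0.0644, 0.066 and 0.0645 RPKM, the unit of level used here, in which reads are divided by the length of the gene and by the library total. Changes are log2 ratios of RPKM + 0.1, a scale on which changes of low genes come out too small. Brackets give 95% exact (Clopper-Pearson) intervals of the counts. They cover the error of counting alone, since reads amplified by PCR and not marked by molecular identifiers do not each stand for a molecule. The ratios of all genes were not centred on 0. Over the 11144 expressed genes (mean RPKM of 1 or more), the ratio had a median of 0.10 at 3 against 0 days, 0.31 at 5 against 0 days and 0.25 at 5 against 3 days, and 0.02, 0.01 and 0.03 after TMM scaling. The ratios also moved with gene length. Cell type markers differed between the libraries as well. Of 14 late neutrophil markers, the 13 expressed ones summed to 154000.4, 121236 and 45276 RPKM at 0, 3 and 5 days, and 12 of the 13 were lower at 5 than at 0 days. The 12 markers of dividing cells summed to 412, 517 and 897 RPKM, and 12 of 12 were higher at 5 than at 0 days (10 of 12 with TMM scaling), beside 67.55% of all expressed genes. In these bulk samples, fewer cells of a type and less RNA per cell cannot be told apart, and the part of the cell types in the values below was not tested.

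Transcripts of the 45 proteasome genes made up 0.447% [0.444, 0.450], 0.369% [0.366, 0.372] and 0.438% [0.435, 0.441] of the reads at 0, 3 and 5 days. The share was thus lowest in the 3-day library. Of the 45 genes, 43 were expressed by this measure, and their median level was 66.0, 53.4 and 68.0 RPKM. The median member stood above 92.4%, 91.0% and 92.8% of the genes with reads, so the proteasome genes ranked among the abundant transcripts of BM in all 3 libraries. The log2 ratio of the 43 genes at 5 against 0 days depended on the scaling, with a median of −0.03 (19 higher, 24 lower) as deposited and −0.34 (6 higher, 37 lower) with TMM. The levels of the 43 genes, which differ widely between roles, had a Spearman correlation of 0.98 between 3 and 0 days, 0.96 between 5 and 0 days and 0.98 between 5 and 3 days. Within the 14 core genes it was 0.95, 0.89 and 0.94, and within the 17 cap genes 0.98, 0.83 and 0.88, so the order of the cap genes differed more in the 5-day library. These are descriptions over genes that share the libraries and their depth, with no p. Both tissue-restricted subunits were close to silent. Psma8, the alpha subunit of the testis, had 12, 9 and 14 reads, and Psmb11, the beta subunit of thymic cortical epithelium, had 45, 40 and 29 reads, all under 1 RPKM.

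**Figure D1:**
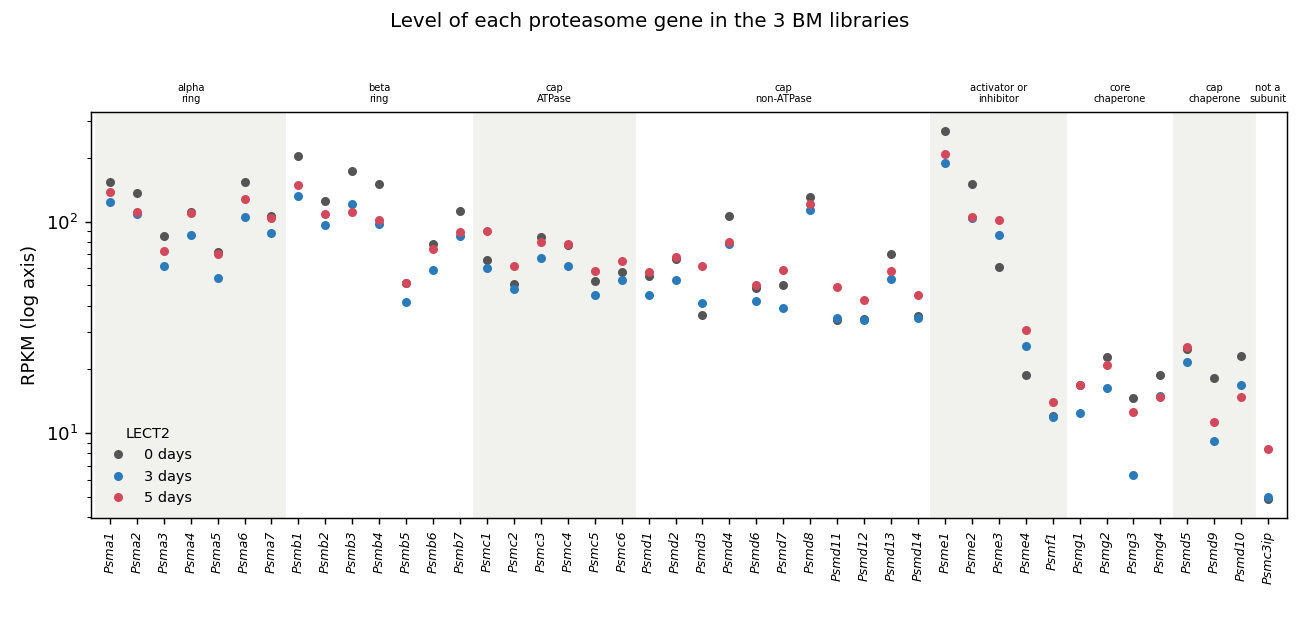
RPKM (log axis) of the 43 expressed proteasome genes and of Psmc3ip, grouped by role, in the libraries of 0 (grey), 3 (blue) and 5 days (red) of LECT2, 1 library each. By median the core lies above the cap, and 13 of the 14 core genes are highest in the 0-day library, whereas Psme3 and Psme4 are lowest in the 0-day library.

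The subunits sit in equal numbers in the 20S core, but their transcripts were not equally abundant. In the alpha ring the level ran from 71.5 RPKM for Psma5 to 154 RPKM for Psma6 at 0 days, a 2.16-fold range. The range was 2.29-fold at 3 days and 1.95-fold at 5 days, with Psma5 again lowest and Psma1 highest. In the beta ring Psmb1 was highest and Psmb5 lowest in each library, and the first was 3.98, 3.18 and 2.90 times the second at 0, 3 and 5 days. The beta levels thus lay closer together in the 3- and 5-day libraries. Among the 6 ATPases the range was narrower, at 1.67-fold, 1.5-fold and 1.54-fold, and among the 11 non-ATPase subunits, of which Psmd8 was highest, it was 3.79-fold, 3.34-fold and 2.85-fold.

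Stretches of promoter are shown first for 2 genes that carry the core letters of the antioxidant response element: Psmb5, the lowest beta subunit, and Psmd9, the cap chaperone with the lowest ratio. They are followed by 3 genes with the letters of an ETS site: Psmc1, Psmd11 and Psme3, which had some of the highest ratios at 5 days, although genes of low ratio carry the same letters. The stretches are RefSeq sequence of GRCm38.p6, 5′ to 3′ on the strand of the gene and upstream of the annotated start, with the matched letters in capitals. Psmd11 was chosen after its values were seen.
Psmb5, chr14:54617996-54618082, minus strand, TGACNNNGC 47 bases before the start: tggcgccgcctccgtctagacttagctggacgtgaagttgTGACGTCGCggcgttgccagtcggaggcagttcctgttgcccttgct
Psmd9, chr5:123228119-123228189, plus strand, TGACNNNGC 31 bases before the start: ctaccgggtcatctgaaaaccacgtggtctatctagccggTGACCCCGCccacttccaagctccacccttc
Psmc1, chr12:100110134-100110201, plus strand, CCGGAAG on the opposite strand 28 bases before the start: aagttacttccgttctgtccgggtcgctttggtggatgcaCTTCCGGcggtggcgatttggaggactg
Psmd11, chr11:80428564-80428614, plus strand, CCGGAAG on the opposite strand 11 bases before the start: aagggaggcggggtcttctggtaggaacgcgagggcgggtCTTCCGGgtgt
Psme3, chr11:101316066-101316152, plus strand, CCGGAAG 107 bases before the start: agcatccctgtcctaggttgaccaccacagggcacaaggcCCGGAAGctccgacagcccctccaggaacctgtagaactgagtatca

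A promoter of 300 bases, from 250 before to 50 after the start, was matched for 38 of the 46 members and for 36 of the 43 expressed proteasome genes. Psma8, Psmb1, Psmb2, Psmb7, Psmc3, Psmd3, Psmd7 and Psmg2 had no entry. The letters were searched on both strands. TGACNNNGC was found in 6 of 36 promoters (16.7%), those of Psmb5, Psmb6, Psmc6, Psmd12, Psmd9 and Psme4. The share was 17.3% of the 8219 promoters of expressed genes and 14% of all 27025 promoters, so the members were close to both. CCGGAAG, the letters of an ETS site, was found in 14 of 36 promoters (38.9%), beside 21.2% of expressed genes and 9.93% of all. It was unevenly spread, with 9 of 14 cap genes (64.3%) and 1 of 11 core genes (9.09%). CCAAT was found in 33.3% of the members, beside 43.6% of expressed genes, and ATGGCGGC, which YY1 binds, in 5.56% beside 5.96%. A match is a description of letters and no proof of a site. At 5 against 0 days, the 14 genes with CCGGAAG had a median log2 ratio of 0.12 and the 22 genes without it −0.10. Taken against genes of the same length, the medians were 0.14 and −0.10. They were closer in the other comparisons, with −0.01 and −0.08 at 3 against 0 days and 0.09 and 0.02 at 5 against 3 days. Since cap genes carry the letters far more often than core genes, the letters and the role cannot be told apart here. The genes with these letters were of both kinds, since Psmd4 (−0.41), Psma6 (−0.28), Psmd13 (−0.26) and Psmg3 (−0.21) had low ratios. Psma6 and Psmd13 were chosen after their values were seen, and the difference was not tested.

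At 3 days, the genes of the core were lower than at 0 days without exception. The 14 core genes summed to 1712, 1259 and 1415 RPKM at 0, 3 and 5 days. The median log2 ratio was −0.40 at 3 against 0 days, −0.22 at 5 against 0 days and 0.21 at 5 against 3 days. All 14 were lower at 3 than at 0 days, and the intervals of all 14 lay under 0. At that time 42.35% of all expressed genes and 80.72% of the other genes in the length range of the core were lower as well. At 5 against 0 days 13 of 14 were lower (9 with the interval under 0), beside 32.45% of all genes and 63.28% of those in this length range. At 5 against 3 days 13 of 14 were higher (10 with the interval above 0), beside 72.92% and 66.14%, although with TMM scaling the median was −0.02, with 7 genes higher and 7 lower. The core median lay under that of all genes in each of the 3 comparisons.

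Psma1, the most abundant alpha subunit, measured 154, 123 and 137 RPKM, with log2 ratios of −0.32 [−0.40, −0.25] and −0.17 [−0.24, −0.09]. Psma2 had the lowest and Psma4 the highest ratio of the ring at 5 days. Psma2 measured 136, 108 and 111 RPKM, a log2 ratio of −0.30 [−0.39, −0.20] at 5 days. Psma4 measured 111, 86.4 and 110 RPKM and was back at its 0-day level, with −0.01 [−0.11, 0.08]. Under TMM scaling all 7 alpha genes were lower at 5 than at 0 days, Psma4 at −0.32 and Psma2 at −0.60, so that the return of Psma4 was seen with the deposited scaling and not with TMM.

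The beta ring was split more widely. Psmb1, its most abundant subunit, measured 203, 132 and 149 RPKM, and Psmb3, a structural subunit, 173, 122 and 110 RPKM. Psmb3 was the lowest of the ring at 5 days, with a log2 ratio of −0.65 [−0.75, −0.55], and the only core gene lower at 5 than at 3 days under deposited scaling (−0.14 [−0.25, −0.03]). The 3 catalytic subunits had higher ratios at 5 against 0 days than Psmb1, Psmb3 and Psmb4, but the ring was not split by this role, since Psmb2, a further subunit without catalytic activity, lay at −0.21, above Psmb7. Psmb2 and Psmb4 were chosen after their values were seen. Psmb5, with chymotrypsin-like activity, measured 51.0, 41.6 and 51.2 RPKM, with log2 ratios of −0.29 [−0.46, −0.13] and 0.01 [−0.15, 0.16]. Psmb6, with caspase-like activity, measured 78.1, 59.1 and 73.7 RPKM and had a ratio of −0.08 [−0.20, 0.03] at 5 days. Psmb7, with trypsin-like activity, measured 112, 85.2 and 88.8 RPKM and was still lower at 5 days, at −0.34 [−0.44, −0.23]. Under TMM scaling all 14 core genes, Psmb5 included, were lower at 5 than at 0 days.

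The constitutive catalytic subunits were set beside their immunoproteasome counterparts, which lie outside the symbol rule. The ratio of Psmb5 to Psmb8 in RPKM was 0.447 [0.410, 0.487], 0.474 [0.430, 0.523] and 0.438 [0.401, 0.477] at 0, 3 and 5 days, and these intervals overlapped. The ratio of Psmb6 to Psmb9 was 0.979 [0.900, 1.06], 1.02 [0.920, 1.12] and 1.19 [1.09, 1.31]. The ratio of Psmb7 to Psmb10 was 1.81 [1.68, 1.95], 1.90 [1.74, 2.07] and 1.58 [1.46, 1.71]. The intervals of 5 days lay apart from those of 0 days for Psmb6 to Psmb9 and from those of 3 days for Psmb7 to Psmb10, and the others of these pairs overlapped. A shift that the 3 pairs shared was not seen.

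The genes of the cap were lower at 3 days by less than those of the core. The summed level of the 17 cap genes was 1057, 905 and 1125 RPKM. The median log2 ratio was −0.20 at 3 against 0 days, with 15 of 17 lower (12 with the interval under 0), beside 49.67% of the other genes in the length range of the cap. It was 0.35 at 5 against 3 days, with 17 of 17 higher (16 with the interval above 0), where 72.92% of all expressed genes and 71.86% of those in this length range were higher too. At 5 against 0 days it was 0.15, under the all-gene median, with 13 of 17 higher beside 64.92% in the length range, but −0.15 with 13 of 17 lower after TMM scaling. With TMM scaling 5 against 3 days gave 0.12, with 14 of 17 higher. The summed core level was 1.62 times the summed cap level at 0 days, 1.39 times at 3 days and 1.26 times at 5 days, a ratio that scaling does not change. The cap sum leaves out the lid subunit Sem1 (Shfm1), which lies outside the symbol rule and measured 549, 318 and 233 RPKM. With it the ratio would be lower, most of all at 0 days, so the fall of the ratio depends on leaving it out.

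**Figure D2:**
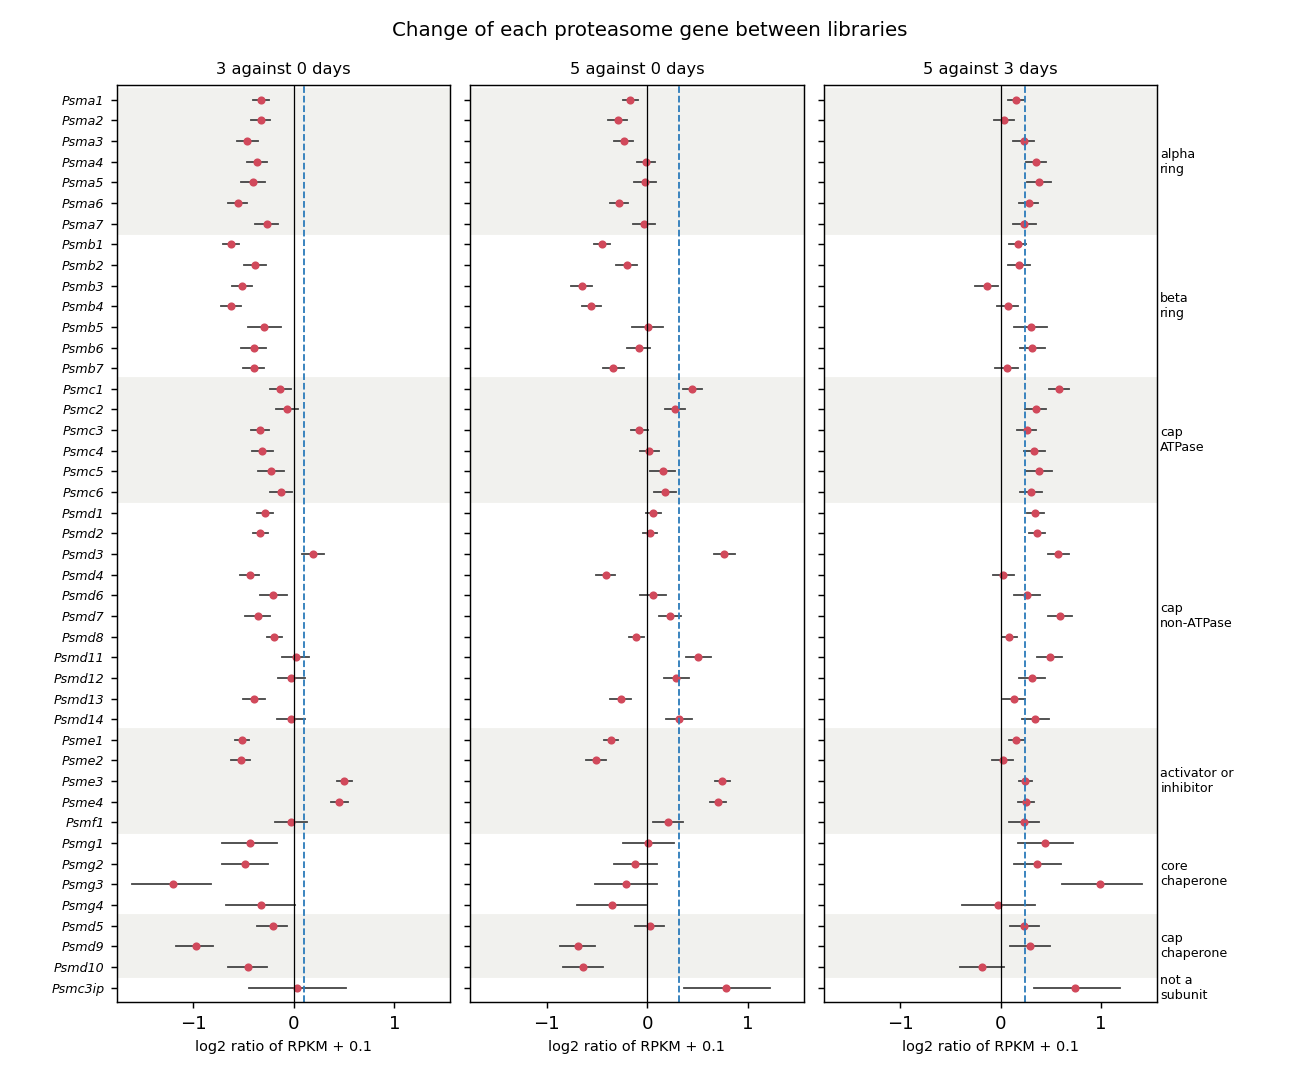
Log2 ratio of RPKM + 0.1 for the 43 proteasome genes and Psmc3ip in the 3 comparisons, with 95% counting intervals (bars) and the median of all 11144 expressed genes (blue dashed line). All 14 core genes lie left of 0 at 3 against 0 days, and all 17 cap genes lie right of 0 at 5 against 3 days with the deposited scaling (14 of 17 after TMM scaling).

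The log2 ratios of the 6 ATPases ran from −0.34 for Psmc3 to −0.07 for Psmc2 at 3 against 0 days, and from 0.26 for Psmc3 to 0.58 for Psmc1 at 5 against 3 days. They were farther apart at 5 against 0 days, from −0.08 for Psmc3 to 0.45 for Psmc1. Psmc3, the most abundant ATPase at 0 days, measured 84.7, 67.0 and 80.3 RPKM. Psmc1 measured 66.0, 60.1 and 90.03 RPKM and passed it at 5 days, with a log2 ratio of 0.45 [0.35, 0.54] at 5 against 0 days. Psmc1 was the one ATPase that was higher at 5 than at 0 days under TMM scaling as well, and Psmc2 joined it when the 100 most abundant genes were left out of the scaling.

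The non-ATPase subunits were the most divided group of the cap. Psmd3, a scaffold subunit of the lid, measured 36.1, 41.2 and 61.5 RPKM and had the highest ratio of all proteasome genes at 5 days, 0.76 [0.66, 0.87]. It was above 0 at 3 days too, at 0.19 [0.08, 0.30]. Psmd4, the ubiquitin receptor, measured 106, 78.5 and 80.0 RPKM and had the lowest ratio of the 17 cap genes under the symbol rule, −0.41 [−0.51, −0.32] at 5 days. Psmd8, the most abundant of the 17 cap genes under the symbol rule, measured 130, 114 and 121 RPKM, a ratio of −0.11 [−0.18, −0.03] at 5 days that was −0.42 with TMM scaling. Of the genes chosen after their values were seen, Psmd11, which belongs to the lid with Psmd3, measured 34.3, 34.8 and 48.8 RPKM, and Psmd14, the deubiquitinase, 35.8, 35.1 and 44.7 RPKM. Under TMM scaling the cap genes above 0 at 5 against 0 days were Psmc1, Psmd3, Psmd11 and Psmd14.

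The PA28 genes and Psme4 differed in direction, and at 3 and 5 against 0 days their directions were the same under TMM scaling. At 5 against 3 days all 5 activators and inhibitors were higher, but 2 of them, Psme1 (−0.07) and Psme2 (−0.20), were lower with TMM. Psme1 and Psme2 encode the alpha and beta subunits of PA28, the interferon-inducible activator that works with the immunoproteasome, and Psme3 encodes the nuclear PA28 gamma. Psme1, the most abundant of all members under the symbol rule, measured 269, 188 and 210 RPKM, a log2 ratio of −0.36 [−0.43, −0.29] at 5 days. Psme2 measured 150, 104 and 106 RPKM, a ratio of −0.51 [−0.60, −0.41]. Psme3 measured 60.9, 86.2 and 102 RPKM, with 0.50 [0.43, 0.58] at 3 days and 0.75 [0.68, 0.82] at 5 days. Relative to Psme1, the level of Psme3 was 0.227 [0.215, 0.238], 0.458 [0.436, 0.482] and 0.487 [0.465, 0.511] at 0, 3 and 5 days. By contrast, Psme1 was 1.79, 1.81 and 1.99 times Psme2, the partner with which it forms 1 ring. Psme4, encoding the large activator PA200 and chosen after its values were seen, measured 18.8, 25.7 and 30.6 RPKM and was higher at both times, with 0.45 and 0.70.

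The assembly chaperones under the symbol rule were less abundant than the core and cap subunits, at 14.6 to 25.1 RPKM at 0 days, so their intervals were wider. Psmg3, which helps to build the alpha ring, had 190, 80 and 164 reads (14.6, 6.30 and 12.6 RPKM). Its log2 ratio was −1.20 [−1.61, −0.83] at 3 against 0 days and 0.99 [0.61, 1.41] at 5 against 3 days, the lowest and the highest value of all members in these comparisons. The ratio was −0.43 for Psmg1, −0.48 for Psmg2 and −0.33 [−0.68, 0.01] for Psmg4, whose interval crossed 0 and which lay 0.24 above genes of its length. Psmd9, a chaperone of the ATPase ring, measured 18.1, 9.16 and 11.2 RPKM from 734, 362 and 454 reads. It was lower at 3 days by −0.98 [−1.17, −0.80] and remained so at 5 days by −0.69 [−0.86, −0.52]. Psmd5, another ATPase chaperone, measured 25.1, 21.6 and 25.5 RPKM, with 0.03 [−0.12, 0.17] at 5 days, but −0.30 at 3 and −0.28 at 5 days with TMM scaling. The meiotic gene Psmc3ip had 74, 74 and 128 reads, with 0.78 [0.37, 1.22] at 5 days. In GENCODE M21, exons of 11 members overlap another gene, 21.2% of the exon bases of Psmc3ip with Mlx and 25.5% of those of Psmd9 with a long noncoding RNA, and the library kit did not keep the strand. Psmg3 shares 9.68% of its exon bases with the protein-coding gene Gm26938 on the same strand.

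Few members passed a fold of 2. Of 44 members with at least 1 RPKM in either library, 0 were at least 2-fold higher at 3 against 0 days, where 4.08% of all genes were, and 1 was at least 2-fold lower (Psmg3), where 2.41% were. At 5 against 0 days 0 were higher, beside 15.5% of all genes, and 0 lower, beside 5.91%. At 5 against 3 days 0 were higher, beside 1.95%, and 0 lower, beside 3.45%. At a fold of 1.5 the members were near or under the share of all genes too. At 3 against 0 days 0 were higher (16.4% of all genes) and 4 of 44, Psmb1, Psmb4, Psmd9 and Psmg3, were lower (9.09%, beside 10%, or 1133 of 11325 genes). At 5 against 0 days 4 were higher, Psmc3ip, Psmd3, Psme3 and Psme4 (9.09%, beside 34.5%), and 3 lower, Psmb3, Psmd10 and Psmd9 (6.82%, beside 12.3%). At 5 against 3 days 3 were higher, Psmc3ip, Psmd7 and Psmg3 (6.82%, beside 17.3%), and 0 lower (6.86% of all genes). Psmb4, Psmd7, Psmd10 and Psme4 are named here for passing this fold, after their values were seen.

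The core and the cap differ in gene length, and so the members were set against other genes of their length. Core genes were 731 (Psmb3) to 1434 bases (Psma3), with a median of 983, and cap genes 1252 (Psmd4) to 3256 bases (Psmd1), with a median of 1564. Other genes in the length range of the core (n = 1577) had a median log2 ratio of −0.33, −0.18 and 0.17 at 3 against 0, 5 against 0 and 5 against 3 days, beside −0.40, −0.22 and 0.21 for the core. Other genes in the range of the cap (n = 5291) had 0.00, 0.22 and 0.24, beside −0.20, 0.15 and 0.35. The core median minus the cap median was −0.20, −0.37 and −0.14, and the same difference between the other genes of both length ranges was −0.34, −0.40 and −0.07. By these broad ranges, the gap between core and cap at 3 and 5 against 0 days was no wider than that between other short and long genes, whereas at 5 against 3 days it was the wider of both. Over the 43 genes, the ratio and the gene length had a Spearman correlation of 0.59, 0.63 and 0.33 in the 3 comparisons, which includes the difference in length between the roles. Within the 17 cap genes it was 0.31, 0.38 and 0.37. Both are descriptions without a p.

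**Figure D3:**
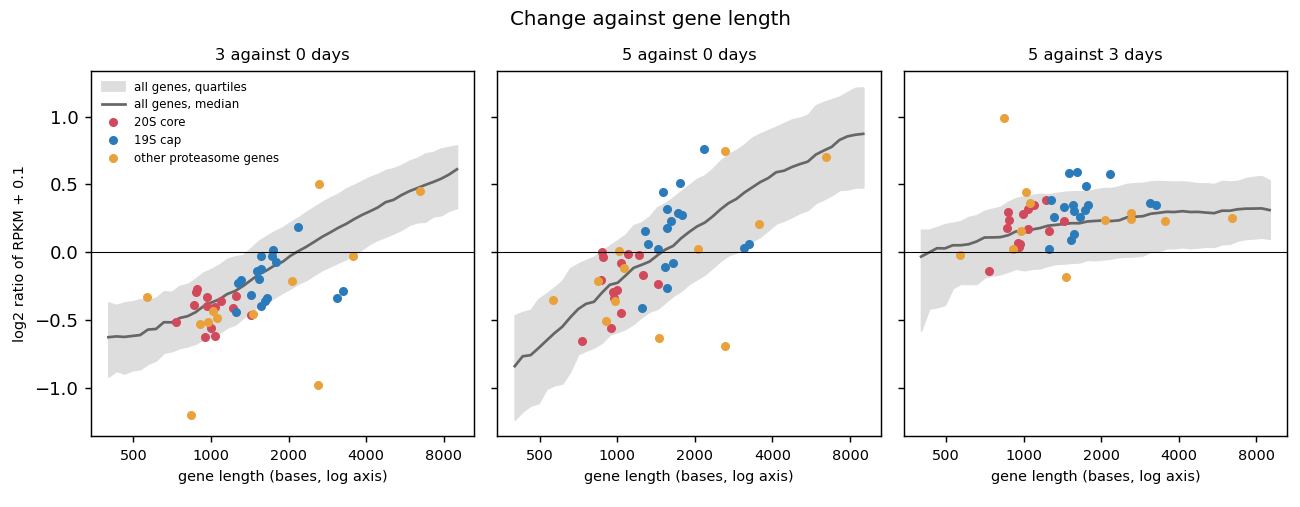
Log2 ratio of RPKM + 0.1 against gene length (log axis) for core (red), cap (blue) and other proteasome genes (orange), over the running median (line) and quartiles (grey band) of all expressed genes within 20% of each length. Most members lie in the grey band, with Psmd9 below it at 3 and 5 against 0 days.

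Each member was then compared with the genes whose length was within 20% of its own. The core lay at a median of −0.03, −0.06 and 0.04 from these genes at 3 against 0, 5 against 0 and 5 against 3 days, and the cap at 0.02, 0.15 and 0.10. The core median minus the cap median was thus −0.05, −0.21 and −0.06 by this closer match, beside −0.37 unmatched at 5 against 0 days. What remained of the gap depended on the match. Other genes within both the length and the level range had medians of −0.26 (269, core) and 0.09 (870, cap) at 5 against 0 days. The members had −0.22 and 0.15. Of the 43 proteasome genes, 32 lay between the quartiles of the genes of their length at 3 against 0 days, 35 at 5 against 0 days and 36 at 5 against 3 days. The core genes also lay closer to each other than like genes did. The interquartile range of the 14 core log2 ratios was 0.16 at 3 against 0 days, 0.28 at 5 against 0 days and 0.20 at 5 against 3 days, beside 0.37, 0.63 and 0.45 for 269 other genes within both the length and the level range of the core. For the 17 cap genes it was 0.26, 0.27 and 0.12, beside 0.45, 0.71 and 0.49 for 870 genes. The trait was not particular to the proteasome. The 8 genes of the CCT chaperonin, a protein-folding complex, had a narrower interquartile range than the core, at 0.09, 0.21 and 0.15, whereas for complexes with subunits like those of the lid it was 0.32, 0.40 and 0.25 (9 genes of the COP9 signalosome) and 0.28, 0.48 and 0.26 (12 genes of the translation factor eIF3). The sets of like genes were drawn up after the values were seen, and the narrower range was not tested.

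**Figure D4:**
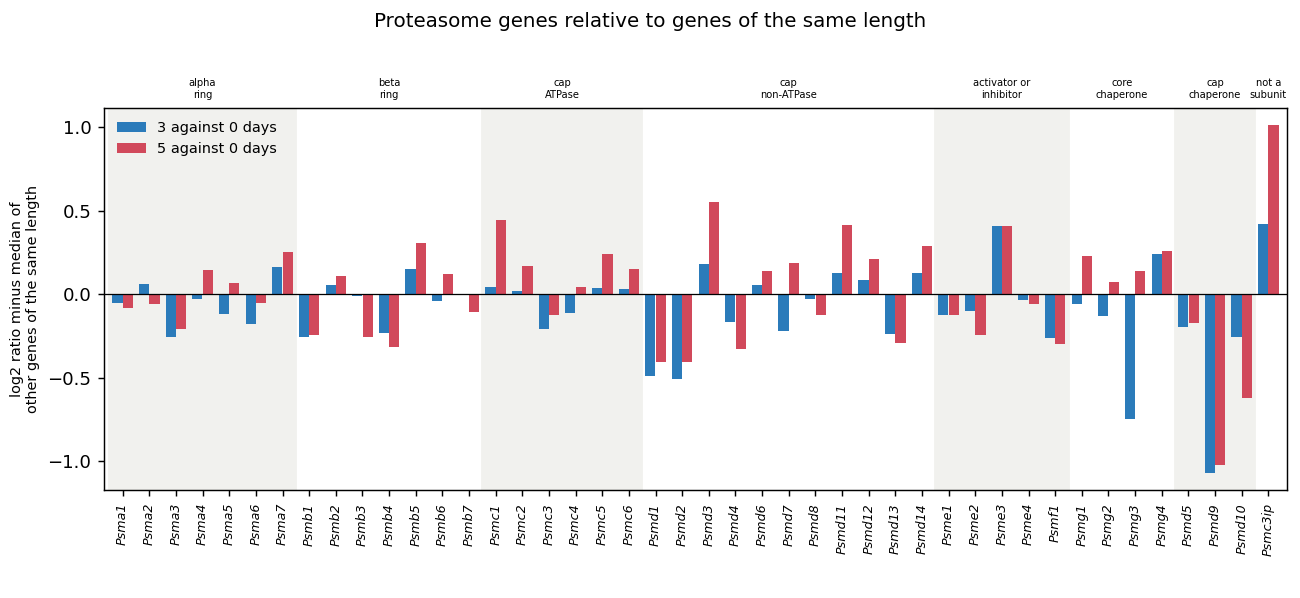
Log2 ratio of each member minus the median log2 ratio of the other genes within 20% of its length, at 3 (blue) and 5 (red) against 0 days. Psmd9 is more than 1 below the genes of its length at both times, and Psme3 stands 0.41 above them at both.

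Against genes of their own length, some members that looked alike were apart and some that looked apart were alike. Psmd9 lay at −1.07 at 3 days and −1.02 at 5 days, lower than all but 0.9% and 6.9% of the 2691 genes of its length. Psmd1 and Psmd2, the large scaffold subunits of the base, were chosen after their values were seen. They had ratios of 0.06 and 0.03 at 5 days, but genes of their length were higher, so that they lay at −0.41 and −0.40, and at −0.49 and −0.51 at 3 days. Psmd10, chosen likewise, lay at −0.62 at 5 days. Psmd3 lay at 0.55, Psmc1 at 0.45 and Psmd11 at 0.42 above the genes of their length at 5 days. Psme3 and Psme4, which had nearly the same ratio at 5 days, differed in this measure, with 0.41 for Psme3 and −0.06 for Psme4, the longest member with 6454 bases. Psmg3 lay at −0.75 at 3 days and 0.14 at 5 days. Psmc3ip, at 1.01, was higher than 95.8% of the 832 genes of its length at 5 days.

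Other genes of the pathway were read from a list of 26 symbols, of which 22 had a row. Their median log2 ratio was 0.05 at 3 against 0 days, 0.36 at 5 against 0 days and 0.26 at 5 against 3 days, close to that of all genes, with 13 higher and 9 lower at 5 against 0 days (12 and 10 after TMM scaling). Ddi2, the protease that activates Nfe2l1, had 54, 208 and 443 reads (0.983, 3.88 and 8.07 RPKM), with log2 ratios of 1.88 [1.54, 2.44] and 2.92 [2.63, 3.47], the highest of the list. With a pseudocount of 1, which weighs on so low a gene, they were 1.299 and 2.19. Nfe2l1, chosen after its values were seen, measured 11.6, 16.6 and 20.6 RPKM, a log2 ratio of 0.82 at 5 against 0 days. Against genes of its length it lay at 0.15 at 3 days and 0.21 at 5 days. Rad23b, which carries ubiquitylated proteins to the cap, measured 31.1, 41.5 and 69.0 RPKM, a ratio of 1.15 at 5 days. Shfm1 and Rps27a, both short genes of high level, were lower at 3 and 5 days. Shfm1, the older symbol of the lid subunit Sem1, measured 549, 318 and 233 RPKM. Rps27a, which encodes ubiquitin fused to a ribosomal protein, measured 764, 394 and 330 RPKM. Against genes of their length at 5 days, Ddi2 lay at 2.41, Rad23b at 0.60, Shfm1 at −0.53 and Rps27a at −0.85.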

How the data were processed

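RNA of flushed BM cells was enriched with oligo(dT) beads and made into libraries with a TruSeq RNA kit that does not mark the strand. For each pair of the 3 time points the authors deposited a table with whole read counts per gene, the gene length and RPKM, which equalled the count divided by the length and by the reads on all listed genes (18 rows at 0 days and 14 at 3 days were off by more than 0.1%, none of a member). The methods name Cufflinks, the submitters' processing notes name the build mm8, and the aligner is not given in the sources used here, so reads of processed pseudogenes may have been shared with members. The deposited columns of log2 ratios, P values and false discovery rates hold the authors' own comparisons and were not used.

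A gene listed at 0.01 RPKM had no reads and was set to 0. Where a symbol had several rows, that of the highest mean level entered, and no member had more than 1. Log2 ratios were taken with a pseudocount of 0.1, over expressed genes, whose mean was 1 RPKM or more. Genes of the same length were those within 20% of a member's length. Called means past a fold of 2 or 1.5. With 1 library per time point no count model could be fitted. TMM factors (edgeR 4.0.16) and median-of-ratios size factors (DESeq2 1.42.0) served only as other scalings. Promoters came from the RefSeq table of GRCm38.p6 by symbol, and overlaps of exons from GENCODE M21, neither of which is the authors' build. Python 3.11.15, pandas 2.3.3, scipy 1.17.1, statsmodels 0.14.6 and R 4.3.3 were used, and the steps were tested on simulated data.

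The members and lists were chosen with earlier results of these data known. Named genes were, by rule, the catalytic subunits, the most abundant member and the members with the highest and lowest ratio at 5 against 0 days of each role, those past 2-fold, those under 1 RPKM, those of no role, and the 3 most abundant, 2 highest and 2 lowest partners. Others are said to be chosen after their values were seen. A partner that the rule names is not reported here.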

Additional observations from a re-analysis of the deposited data

How the results depend on the processing

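No paired analysis was possible because there was 1 library per time point, and for the same reason no replicate could be left out. The comparison of 5 against 3 days does not use the 0-day library. A difference from genes of the same length is nearly fixed under another scaling by construction. Over the other pseudocounts, minimum levels and length windows, that of the core ran from −0.07 to −0.02, −0.09 to −0.05 and 0.03 to 0.09 at 3 against 0, 5 against 0 and 5 against 3 days, and that of the cap from −0.02 to 0.03, 0.15 to 0.18 and 0.09 to 0.13. The median log2 ratios depended on the scaling, which moves all genes together by construction. With TMM factors, median-of-ratios factors and without the 100 most abundant genes, the core at 5 against 0 days was −0.53, −0.52 and −0.42, the cap −0.15, −0.14 and −0.0467, and the core at 5 against 3 days −0.0184, −0.0122 and 0.10. The cap at 5 against 3 days was 0.12 and 0.13 with the first 2 of these. After removal of the trend on gene length, the core was −0.0339, −0.0453 and 0.0318 at 3 against 0, 5 against 0 and 5 against 3 days, and the cap 0.0224 at 3 against 0 and 0.0882 at 5 against 3 days. Members at least 2-fold lower at 3 against 0 days were 2 under each of the 3 scalings, 4 at a fold of 1.5 and 0 at a fold of 4. At 5 against 0 days 1 was higher and 1 lower after removal of the length trend, and 4 were higher and 3 lower at a fold of 1.5. At 5 against 3 days 3 were higher at a fold of 1.5. The shares of all genes at a fold of 1.5 are given above. For the 3 scalings, a fold of 4 and the removed length trend such shares are not given. The counts under these settings are therefore no result about the members. Of the 90 values of named genes, 55, 54 and 48 moved down beyond their counting interval under the 3 scalings, and 36 moved up and 27 down when the length trend was removed. A pseudocount of 1 moved 2 values, both of Ddi2, to 1.299 at 3 and 2.19 at 5 against 0 days, and one of 0.01 moved 0. The depth limits Psma8, with 9 to 14 reads, and Psmb11, with 29 to 45, most, followed by Psmc3ip, with 74 to 128, and the chaperones Psmg1 to Psmg4, with 80 to 376.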

Other observations

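Other multi-subunit complexes are given beside the proteasome. The 8 genes of the CCT chaperonin, which folds actin and tubulin, had a median log2 ratio of −0.28 at 3 against 0 days (8 of 8 lower), 0.19 at 5 against 0 days (−0.12 after TMM scaling) and 0.46 at 5 against 3 days (8 of 8 higher). The 9 genes of the COP9 signalosome, whose subunits resemble those of the proteasome lid, had −0.08, 0.34 and 0.40, with 9 of 9 higher at 5 than at 3 days (6 of 9 after TMM scaling, under which the medians at 5 against 0 and 5 against 3 days were 0.03 and 0.18). The 12 genes of the translation factor eIF3, which shares the same kinds of subunit, had −0.09, 0.29 and 0.31, with 12 of 12 higher at 5 than at 3 days (10 of 12 after TMM scaling, under which the median at 5 against 0 days was −0.02). Of all expressed genes, 42.35% were lower at 3 than at 0 days and 72.92% higher at 5 than at 3 days. From genes of the same length at 5 against 3 days, the medians of the 3 complexes were 0.22, 0.17 and 0.11, beside 0.04 for the 20S core and 0.10 for the 19S cap.

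Pomp, the chaperone that matures the core, was chosen after its values were seen. It measured 220, 130 and 138 RPKM, from 2510, 1450 and 1571 reads. Against genes of its length it lay at −0.26 at 3 and −0.27 at 5 against 0 days. The macrophage and monocyte markers (10 genes) summed to 1345, 1600 and 1985 RPKM, and the 6 promyelocyte markers to 2328, 2173 and 3691. The 9 B cell markers summed to 2420, 1915 and 1738, and the 8 T and NK cell markers to 130, 75.1 and 81.7. The 9 erythroid markers summed to 569, 705 and 564 and the 3 expressed of 5 plasma cell markers to 75.1, 82.5 and 64.8. At 5 against 0 days, 8 macrophage and monocyte, 5 promyelocyte and 6 erythroid markers were higher (7, 4 and 2 after TMM scaling). Of the B, T and NK and plasma cell markers 0, 1 and 1 were higher (0 each after TMM). Of all expressed genes, 67.55% were higher. At 0 and 5 days Ly6c2 measured 932 and 1138 RPKM, Mpo 435 and 1237, Alas2 175 and 107 and Irf4 66.3 and 55.2. These genes, chosen after their values were seen, weigh much on the sums.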
